A study of Mus musculus with 10 samples.

Results

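The TNF receptor superfamily was followed through 10 of its genes, taken as a fixed list by symbol: Tnfrsf1a, Tnfrsf1b, Tnfrsf4, Tnfrsf8, Tnfrsf9, Tnfrsf13b, Tnfrsf18, Tnfrsf25, Cd27 and Fas. They were 10 of 48321 gene symbols counted in every library, and all 10 were among the 13796 genes that passed the filter on low counts. RNA was sequenced from CD4+ T cells of the spleen of C57BL/6 mice that carried a GFP reporter of Foxp3. Cells were sorted by GFP, read as FoxP3, and by surface CD25, the alpha chain of the IL-2 receptor encoded by Il2ra. WT mice gave FoxP3+CD25+ cells (regulatory T cells, Tregs) and FoxP3-CD25- cells (non-Tregs). Satb1 F/F:Thpok-cre (KO) mice gave these populations and FoxP3+CD25- cells. Each of the 5 groups held 2 libraries, and replicate numbers were taken to name mice within a genotype, although no label says so outright. No group was treated, and the reporter was shared by all groups. Thpok-cre acts in the CD4 lineage after its commitment and before Foxp3 comes on, so the design targets Tregs and non-Tregs of KO mice alike.

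Receptors of this superfamily are membrane proteins with cysteine-rich repeats outside the cell, and most are bound by trimeric ligands of the TNF superfamily. One branch (OX40, 4-1BB, GITR, CD27, CD30, TNFR2) recruits TRAF adaptors and feeds NF-kappaB and survival signals, and these receptors act as co-stimulators of T cells. Another branch (TNFR1, Fas, DR3) has a cytoplasmic death domain, which can lead to caspase 8 or to NF-kappaB. Tregs are known for high levels of GITR, OX40 and TNFR2.

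The depth on genes ran from 6094952 to 12410064 reads. Levels are given as CPM, the read counts of a gene scaled to library size and TMM factors. At these depths 3 counts, taken as the floor, were 0.242 to 0.492 CPM, which covers counting error only. Satb1, the targeted gene, stood at 428 ± 70 CPM (SD, n = 2) in WT Tregs and 566 ± 45 in KO Tregs, at 849 ± 45 in WT non-Tregs and 762 ± 113 in KO non-Tregs, and at 1090 ± 136 in KO FoxP3+CD25- cells. It was thus not lower in KO Tregs (log2 0.40 ± 0.15 against WT Tregs, FDR 1.0). Counts per gene do not resolve a deleted segment, so they did not check the deletion, and KO is used as the name the labels give. Both libraries of WT replicate 1 stood apart: they held 14487 and 16362 counts of Xist and none of the Y-linked genes. The other 8 libraries held at most 4 counts of Xist and 3039 to 4750 counts of the Y-linked genes. The paper used mice of mixed sexes. The other mice were thus read as male, and WT replicate 1 as female. None of the 10 receptor genes is on a sex chromosome, and results that involve WT cells are also given without that mouse where this changes a call. The 6 CD4 T-cell markers summed to 2889 to 3617 CPM. Foxp3, one of the sorted features, stood at 618 to 739 CPM in FoxP3+CD25+ cells, 318 and 361 CPM in KO FoxP3+CD25- cells, and 18.0 to 38.9 CPM in FoxP3-CD25- cells. In bulk RNA, fewer cells with a transcript and less transcript per cell cannot be told apart.

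Of these genes, 6 lie on chromosome 4 (mm10, positions from GENCODE M21). Tnfrsf1b (145213463 to 145246870, minus strand) and Tnfrsf8 (145267137 to 145315164, minus strand) are separated by 20266 bases. Tnfrsf4 (156013843 to 156016612, plus strand) and Tnfrsf18 (156026164 to 156028895, plus strand) are separated by 9551 bases. Tnfrsf9 (150914562 to 150946102) and Tnfrsf25 (152115934 to 152120119) lie between these pairs on the plus strand. Cd27 (125232622 to 125237010, minus strand) and Tnfrsf1a (125349362 to 125362484, plus strand) are on chromosome 6. Tnfrsf13b is on chromosome 11 (61126755 to 61149372) and Fas on chromosome 19 (34290666 to 34327772), both on the plus strand. Tnfrsf18 shares 414 exonic bases with Gm16008, a gene on the opposite strand that reached 484 counts in a library. The strand setting of the counting is not given in the sources used here, so some reads of these genes could not be told apart. Cd27 contains a microRNA gene, Mir8113, which had 0 counts.

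The 250 bases before the start site of the 3 members with the steepest Treg differences are shown. All 3 were higher in Tregs of both genotypes, and their promoters differ in motif content. The sequences are RefSeq promoters (GRCm38.p6, the coordinates of mm10), read 5′ to 3′ on the strand of the gene. Capitals mark matches to an NF-kappaB consensus of 10 letters, to an AP-1 motif (TGANTCA) or to a forkhead motif (TGTTTNC), searched on both strands. The first is the second start site of Tnfrsf9 (chr4:150927749-150927998), which held all of these motifs. Its overlapping NF-kappaB matches begin 43 and 42 bases before the start, and its AP-1 match 15 bases before it. The next is Tnfrsf8 (chr4:145315165-145315414, minus strand), with an NF-kappaB match 168 bases and an AP-1 match 132 bases before the start. The last is Tnfrsf4 (chr4:156013445-156013694), in which no motif matched. At the first start site of Tnfrsf9 (chr4:150919905-150920154), which is not shown, no motif matched either. Which site these cells use was not measured.
Tnfrsf9, second start site: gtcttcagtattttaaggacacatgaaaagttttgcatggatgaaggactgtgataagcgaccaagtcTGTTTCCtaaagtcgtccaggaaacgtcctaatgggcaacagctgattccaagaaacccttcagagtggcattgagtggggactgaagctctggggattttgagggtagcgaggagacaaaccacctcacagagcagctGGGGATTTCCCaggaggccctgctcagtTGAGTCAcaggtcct
Tnfrsf8: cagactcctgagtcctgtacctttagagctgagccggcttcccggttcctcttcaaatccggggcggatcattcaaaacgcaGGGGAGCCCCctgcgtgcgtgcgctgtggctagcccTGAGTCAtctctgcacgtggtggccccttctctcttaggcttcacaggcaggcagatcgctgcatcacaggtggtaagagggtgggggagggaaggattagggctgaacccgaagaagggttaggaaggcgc
Tnfrsf4: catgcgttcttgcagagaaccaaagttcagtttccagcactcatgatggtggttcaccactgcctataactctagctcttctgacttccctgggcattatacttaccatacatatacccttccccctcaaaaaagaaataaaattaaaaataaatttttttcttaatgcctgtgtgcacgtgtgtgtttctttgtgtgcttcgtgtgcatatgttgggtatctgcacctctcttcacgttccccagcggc
RefSeq promoters matched all 10 members, with 12 windows of 250 bases before and 50 bases after a start. The NF-kappaB consensus was found in 2 of the 12 windows, those of Tnfrsf8 and Tnfrsf9, against 4.51% of 32851 windows of all genes. The AP-1 motif was found in 3 windows (Tnfrsf8, Tnfrsf9 and Fas, against 7.81%), and the forkhead motif in 2 (Tnfrsf9 and Fas, against 20.5%). A RUNX motif (TGTGGT) was found in 2 windows, Tnfrsf9 and Tnfrsf25, against 16.8%. These are matches of letters and no binding was measured.

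Per kilobase of exonic sequence, Cd27 was the most abundant member in every group, at 142 ± 5.5 CPM per kb (SD, n = 2) in WT Tregs and 108 ± 3.7 in WT non-Tregs. CD27 is the receptor for CD70 and supports T-cell survival. In WT Tregs it was followed by Tnfrsf18 (111 ± 31), Tnfrsf4 (106 ± 17) and Tnfrsf1b (103 ± 32), whose order could not be set given their spread. Tnfrsf9 (44.6 ± 2.5) and Tnfrsf25 (34.8 ± 4.5) came next, then Fas (21.8 ± 2.4) and Tnfrsf13b (19.7 ± 1.2), which did not differ beyond their spread. Tnfrsf1a (13.2 ± 1.3) and Tnfrsf8 (4.26 ± 0.67) were the least abundant. KO Tregs had the same leading genes, with Cd27 at 144 ± 2.2, Tnfrsf18 at 124 ± 9.6, Tnfrsf4 at 115 ± 4.8 and Tnfrsf1b at 85.3 ± 3.8 CPM per kb.

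In WT non-Tregs the order was different. Tnfrsf18 (30.6 ± 0.092 CPM per kb), Tnfrsf25 (27.9 ± 0.92), Tnfrsf1b (24.0 ± 3.6) and Tnfrsf1a (19.6 ± 1.9) followed Cd27, and Tnfrsf4 stood at only 12.3 ± 1.7. Summed over the 10 genes, level per kb was 601 ± 30 CPM in WT Tregs and 620 ± 12 in KO Tregs. It was 247 ± 2.1 in WT non-Tregs, 267 ± 25 in KO non-Tregs and 285 ± 14 in KO FoxP3+CD25- cells. Cd27 made up 23.4% and 23.8% of this sum in the WT Treg libraries and 23.2% and 23.3% in the KO Treg libraries. In the other 6 libraries it made up 39.9% to 45.9%. Tnfrsf4 made up 16.4% to 19.4% in the 4 Treg libraries and 3.29% to 6.89% in the other 6, and Tnfrsf9 made up 7.39% to 7.67% against 1.09% to 1.86%.

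**Figure D1:**
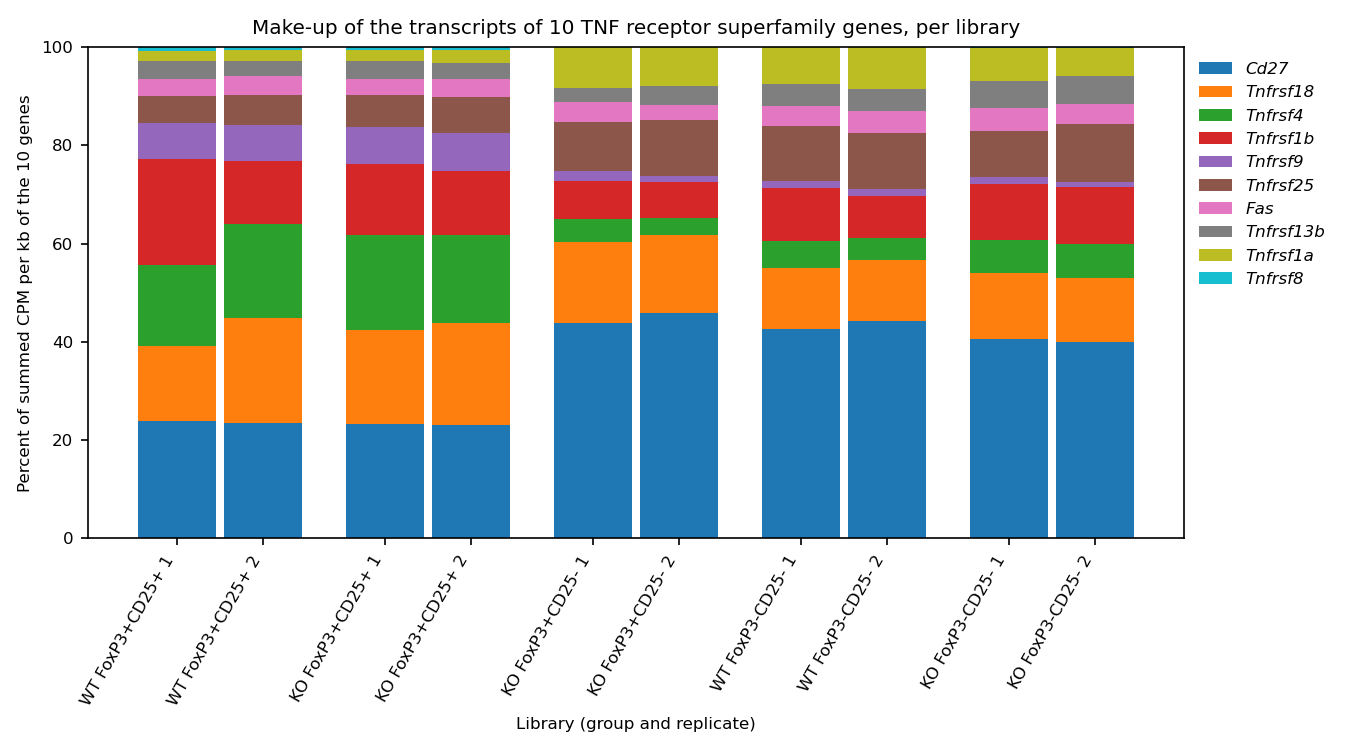
Share of each of the 10 receptor genes in their summed CPM per kb of exonic sequence (y axis, percent), in stacked bars, 1 bar per library (x axis). Cd27 (bottom segment) took 23.2% to 23.8% in the 4 FoxP3+CD25+ libraries and 39.9% to 45.9% in the other 6 libraries.

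The comparison of WT Tregs with WT non-Tregs asked which receptors differ between these T cells in normal mice. Of the 10 members, 8 were higher in Tregs, 1 (Tnfrsf1a) was lower, and Tnfrsf25 did not pass the test (edgeR's quasi-likelihood test, Benjamini-Hochberg FDR under 0.05 over 13796 genes). In this comparison 10.9% of all genes tested were called, 7.15% higher and 3.75% lower. The median log2 fold change was 1.45 over the members and -0.02 over all genes. The members were chosen with earlier results of these data known, so these values describe the list and not the whole superfamily.

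Among the co-stimulatory receptors, Tnfrsf9 encodes 4-1BB (CD137), which is induced by antigen receptor signals. It stood at 117 and 126 CPM in WT Tregs and at 9.36 and 8.77 CPM in WT non-Tregs, a 13.4-fold difference (log2 3.74 ± 0.16, SE; FDR 4.34e-07). Tnfrsf8 encodes CD30, the receptor for CD153. It stood at 16.4 and 13.1 CPM in WT Tregs and at 0.828 and 0.516 CPM in WT non-Tregs (log2 4.39 ± 0.32, FDR 2.16e-05), where it rested on 10 and 5 counts. Tnfrsf4 encodes OX40. It stood at 129 and 161 CPM against 18.4 and 15.2 CPM, an 8.62-fold difference (log2 3.11 ± 0.17, FDR 2.65e-06). In each of these genes the Treg libraries lay far above the non-Treg libraries.

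Tnfrsf18 encodes GITR, a receptor used as a Treg marker. It stood at 136 and 204 CPM in WT Tregs and at 46.5 and 46.8 CPM in WT non-Tregs (log2 1.86 ± 0.17, FDR 6.18e-05). The Treg libraries lay apart from each other, and both were above the non-Treg libraries. Cd27 stood at 321 and 339 CPM against 244 and 256 CPM, a 1.32-fold difference (log2 0.40 ± 0.10, FDR 0.0306). Tnfrsf25 encodes DR3, the death domain receptor for TL1A. It stood at 72.0 and 86.5 CPM against 62.0 and 65.0 CPM, and its log2 fold change of 0.32 ± 0.17 did not pass (FDR 0.334, 95% interval -0.07 to 0.71).

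The receptors for TNF itself went opposite ways in WT cells. Tnfrsf1b encodes TNFR2, which has no death domain. It stood at 479 and 304 CPM in WT Tregs and at 102 and 81.8 CPM in WT non-Tregs (log2 2.09 ± 0.19, FDR 6.66e-05). Tnfrsf1a encodes TNFR1, which has one. It stood at 31.9 and 36.5 CPM in WT Tregs and at 47.3 and 54.2 CPM in WT non-Tregs, and fell by 0.57 ± 0.13 on the log2 scale (FDR 0.0166). Fas, the death receptor for Fas ligand, stood at 41.5 and 48.5 CPM against 20.9 and 22.9 CPM (log2 1.04 ± 0.14, FDR 0.000807). Tnfrsf13b encodes TACI, a receptor for BAFF and APRIL best known on B cells. It stood at 58.2 and 53.5 CPM against 31.0 and 32.2 CPM (log2 0.82 ± 0.14, FDR 0.00371).

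Ms4a1, which encodes the B-cell antigen CD20, was near 0 in these libraries and reached at most 0.763 CPM. The 10 B-cell markers summed to 35.6 and 27.2 CPM in WT Tregs and 18.1 and 14.8 CPM in WT non-Tregs, of which Cd79b, a chain of the B-cell receptor complex, gave 19.1 and 14.7 CPM in Tregs. Their part in the Tnfrsf13b difference was not tested. Without both libraries of WT mouse 1, which left 1 library in each WT group, Tnfrsf1a (log2 -0.56), Tnfrsf13b (0.74) and Cd27 (0.41) no longer passed. Fewer of all genes passed in that fit too. The calls of Cd27 and Tnfrsf1a were also lost in a fit of the WT libraries alone (FDR 0.0895 and 0.0933). Cd27 lost its call when any of the 4 WT libraries was left out (FDR 0.0523 to 0.193), and Tnfrsf1a lost it without replicate 1 of the Tregs (FDR 0.114) or replicate 2 of the non-Tregs (FDR 0.15).

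**Figure D2:**
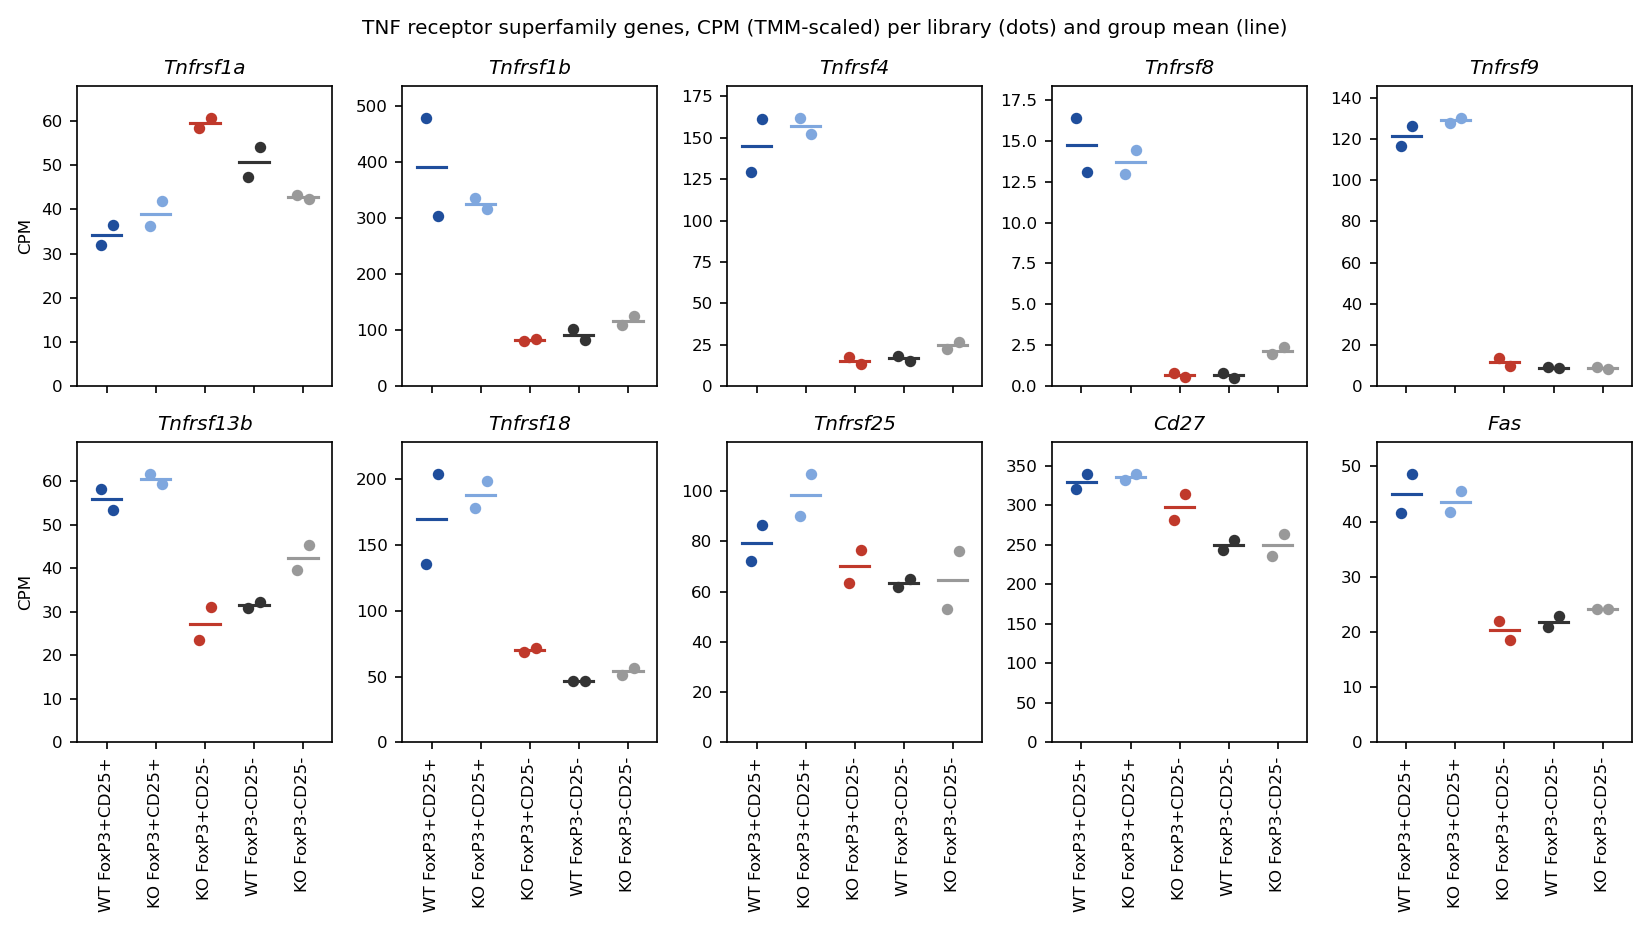
CPM scaled by TMM factors (y axes, linear, from 0) of the 10 receptor genes in the 5 groups (x axes), with 1 dot per library and a line at the mean of 2 libraries. In Tnfrsf4, Tnfrsf8, Tnfrsf9 and Tnfrsf1b the 4 FoxP3+CD25+ libraries lay above the other 6, and in Tnfrsf1a they lay below them.

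The same comparison in KO mice asked whether the receptors also differ between Tregs and non-Tregs of that genotype. In KO mice 7 of the 10 members were higher in FoxP3+CD25+ Tregs than in FoxP3-CD25- cells and none was lower, where 6.34% of all genes were called, 3.52% higher and 2.81% lower. Tnfrsf9 had the lowest p-value of all 13796 genes, at 128 and 130 CPM in Tregs and 9.26 and 8.43 CPM in non-Tregs (log2 3.87 ± 0.16, FDR 1.2e-06). Tnfrsf4 stood at 162 and 153 CPM against 22.5 and 26.7 CPM (log2 2.67 ± 0.17, FDR 1.7e-05). Tnfrsf8 stood at 13.0 and 14.4 CPM against 1.98 and 2.37 CPM, the latter from 12 and 18 counts (log2 2.63 ± 0.29, FDR 0.000458).

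Tnfrsf18 stood at 178 and 199 CPM in KO Tregs and 50.9 and 56.9 CPM in KO non-Tregs (log2 1.80 ± 0.17, FDR 0.000171). Tnfrsf1b stood at 336 and 315 CPM against 109 and 125 CPM (log2 1.48 ± 0.19, FDR 0.0011). The Treg libraries again lay above the non-Treg libraries for both genes. Fas (log2 0.85 ± 0.15, FDR 0.00586) and Cd27 (log2 0.42 ± 0.10, FDR 0.0363) were also higher. Without 1 library at a time the call of Cd27 was lost each time (FDR 0.0928 to 0.299), and that of Fas was lost in 3 of 4 cases (FDR 0.0519 to 0.0641), all but the fit without replicate 1 of the KO Tregs. Cd27 also missed the threshold when libraries were scaled by size alone (FDR 0.0544).

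In KO mice 3 members did not pass. Tnfrsf1a stood at 36.2 and 41.8 CPM in KO Tregs and 43.2 and 42.4 CPM in KO non-Tregs (log2 -0.13 ± 0.13, FDR 0.75). Tnfrsf13b stood at 61.6 and 59.5 CPM against 39.5 and 45.3 CPM (log2 0.51 ± 0.15, FDR 0.0714). Tnfrsf25 stood at 90.2 and 107 CPM against 53.1 and 76.3 CPM (log2 0.60 ± 0.18, FDR 0.08). With the mouse as a replicate block, Tnfrsf13b (FDR 0.0183) and Tnfrsf25 (FDR 0.00212) passed, which gave 9 members higher. In that fit 1650 of 13796 genes were called. Tnfrsf25 also passed without replicate 2 of the KO non-Tregs (FDR 0.0334) and in DESeq2 (FDR 0.0436), and its level was higher in replicate 2 than in replicate 1 in all 3 KO populations.

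The difference between the KO and the WT contrast was tested as an interaction, and it passed for none of the 10 members, with 0% of all genes called by edgeR (685 genes at an unadjusted p under 0.05, 23 genes called by DESeq2). At an unadjusted p under 0.05 there were 3 members, and DESeq2 called 0. Tnfrsf8 had the largest difference, at -1.75 ± 0.51 on the log2 scale (FDR 0.717), with 1.98 and 2.37 CPM in KO non-Tregs and 0.828 and 0.516 CPM in WT non-Tregs. Tnfrsf1b differed by -0.62 ± 0.26 (FDR 0.978) and Tnfrsf1a by 0.43 ± 0.19 (FDR 0.98). The other 7 members had differences from -0.44 (Tnfrsf4) to 0.28 (Tnfrsf25). A call in 1 genotype and not in the other, as for Tnfrsf1a and Tnfrsf13b, was therefore not shown to be a difference between genotypes, nor was one excluded: the 95% interval was 0.02 to 0.85 for Tnfrsf1a and -0.77 to 0.14 for Tnfrsf13b.

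**Figure D3:**
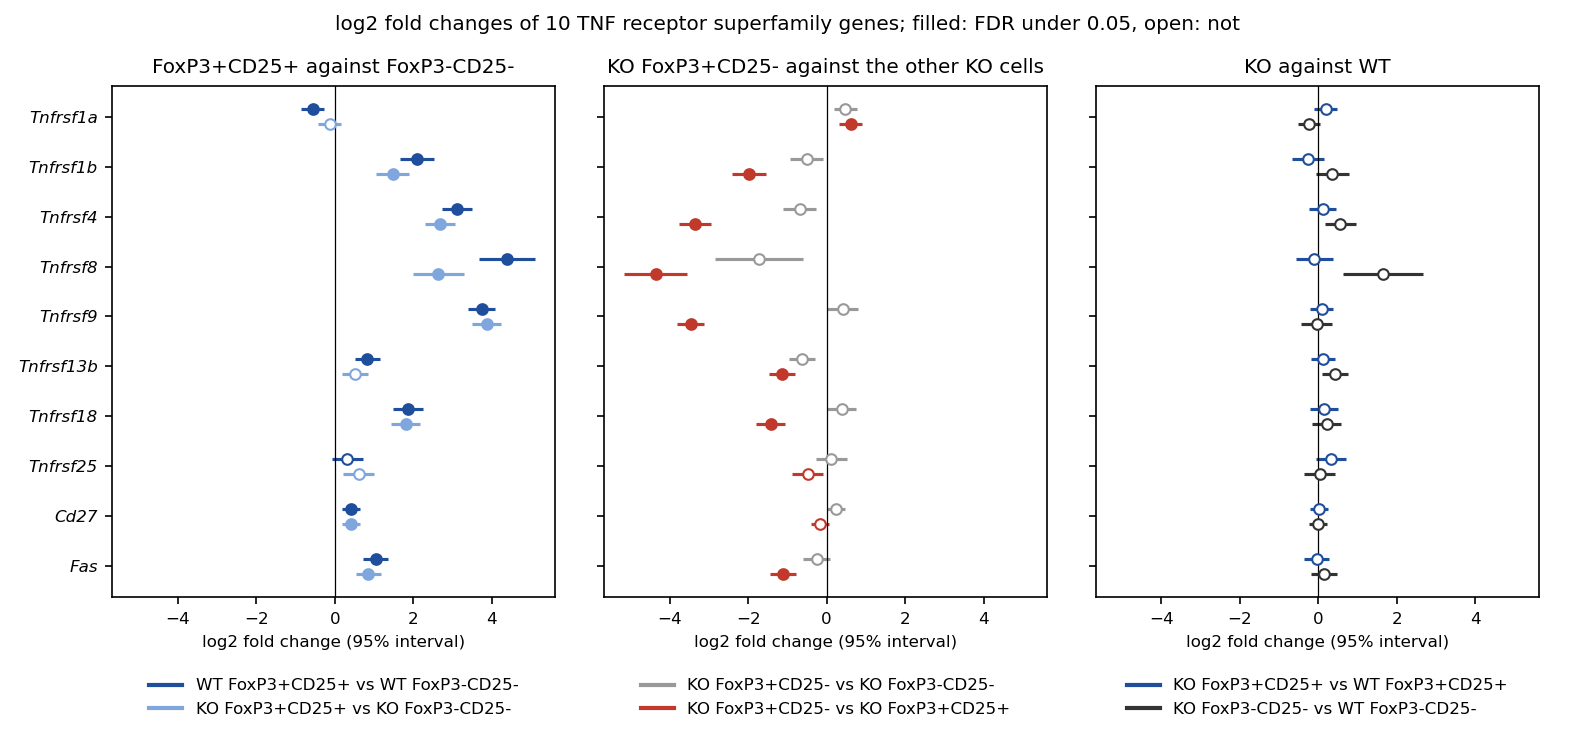
Log2 fold change (x axes) with its 95% interval (bars) for each receptor gene (y axis) in 6 comparisons, with filled points at FDR under 0.05 and open points otherwise. The KO against WT points are all open, and their intervals in FoxP3+CD25+ cells lie between -0.67 and 0.70.

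Between the genotypes directly, no member passed the test. In KO against WT FoxP3+CD25+ Tregs edgeR called 0 members, 0 passed at an unadjusted p under 0.05 and DESeq2 called 0, while 0.00725% of all genes were called (593 genes at an unadjusted p under 0.05). The log2 differences were at most 0.31 in size, for Tnfrsf25 (95% interval -0.07 to 0.70). The intervals of all 10 members lay between -0.67 and 0.70, so a change of Tnfrsf1b to under 0.63 of the WT level, or of Tnfrsf25 to over 1.62 times it, lay outside the 95% interval. Each interval used a spread pooled over the 5 groups. The 2 WT Treg libraries differed more than the pair of any other group (chi-square of their counts per gene 20.3, against 6.96 to 10.4). For Tnfrsf1b they stood at 479 and 304 CPM, so its interval may be too narrow. The interval of Tnfrsf9 was -0.20 to 0.38, that of Tnfrsf4 -0.23 to 0.46 and that of Cd27 -0.20 to 0.25. For Tnfrsf1a it was -0.11 to 0.49, for Tnfrsf13b -0.20 to 0.43, for Tnfrsf18 -0.21 to 0.51, for Fas -0.35 to 0.27 and for Tnfrsf8 -0.58 to 0.37. The signs of the differences for Tnfrsf1b, Tnfrsf4, Tnfrsf8, Tnfrsf18 and Cd27 turned without WT mouse 1. The 6 KO libraries and WT replicate 2 were read as male and WT replicate 1 as female, so sex was partly confounded with genotype. The part of sex in the differences was not tested.

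In KO against WT FoxP3-CD25- cells edgeR also called 0 members (3 at an unadjusted p under 0.05, 0 by DESeq2), with 0.145% of all genes called, 0.116% higher and 0.029% lower (1106 at an unadjusted p under 0.05). The 3 members were Tnfrsf8 (log2 1.65 ± 0.46, FDR 0.278), Tnfrsf4 (0.55 ± 0.18, FDR 0.402) and Tnfrsf13b (0.43 ± 0.15, FDR 0.436). The other 7 members had log2 differences from -0.24 (Tnfrsf1a) to 0.35 (Tnfrsf1b). Of 8 Treg markers, 4 had an unadjusted p under 0.05 here and DESeq2 called 1, where it called 103 of all genes. Foxp3 stood at 38.9 and 19.5 CPM in KO and 18.6 and 18.0 CPM in WT non-Tregs (FDR 0.511). Ikzf2, the Treg factor Helios, stood at 129 and 136 CPM against 72.5 and 55.1 CPM. For Il2ra the values were 11.4 and 5.40 against 3.56 and 1.55 CPM. Libraries overlapped for Ctla4 (124 and 81.8 against 97.2 and 48.0 CPM) and Nrp1 (102 and 180 against 102 and 50.5 CPM). They also overlapped for Ikzf4 (13.2 and 9.09 against 16.3 and 12.2 CPM), and Lrrc32 and Itgae reached at most 2.98 CPM. Whether these values bear on the receptor levels was not tested.

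KO FoxP3+CD25- cells carry Foxp3 without surface CD25, and they were set against the Tregs and the non-Tregs in turn. Against KO Tregs 7 members were lower and 1 (Tnfrsf1a) was higher, while 7.02% of all genes were called, 4.76% lower and 2.25% higher. Tnfrsf4 stood at 17.8 and 13.2 CPM in these cells, 10.3-fold below KO Tregs (log2 -3.36 ± 0.18, FDR 3.77e-06). Tnfrsf9 stood at 13.9 and 9.85 CPM (log2 -3.46 ± 0.16, FDR 2.03e-06). Tnfrsf8 stood at 0.808 and 0.547 CPM, from 5 counts in each library (log2 -4.36 ± 0.36, FDR 7.88e-05). All 3 genes were far below the Treg libraries. Against the 4 non-Treg libraries, Tnfrsf9 lay above them in both libraries, Tnfrsf8 lay within their range, and Tnfrsf4 lay within it in 1 library and below it in the other.

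Tnfrsf1b stood at 81.3 and 83.4 CPM in KO FoxP3+CD25- cells (log2 -1.98 ± 0.19 against KO Tregs, FDR 0.000189). Tnfrsf18 stood at 68.9 and 71.7 CPM (log2 -1.42 ± 0.17, FDR 0.000567), above all 4 non-Treg libraries, which spanned 46.5 to 56.9 CPM. Fas stood at 22.0 and 18.6 CPM (log2 -1.11 ± 0.15, FDR 0.0012) and Tnfrsf13b at 23.4 and 31.2 CPM (log2 -1.14 ± 0.15, FDR 0.00106). Tnfrsf1a was highest in this population among the 5 groups, at 58.4 and 60.6 CPM (log2 0.61 ± 0.13, FDR 0.0171). Its call was lost in 3 of 4 cases when 1 library was left out (FDR 0.0756 to 0.171).

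Cd27 stood at 281 and 314 CPM in KO FoxP3+CD25- cells and did not pass against KO Tregs (log2 -0.17 ± 0.10, FDR 0.431). Tnfrsf25 stood at 63.5 and 76.7 CPM and did not pass either (log2 -0.49 ± 0.18, FDR 0.148), but passed with the mouse as a replicate block (FDR 0.00737). Against WT Tregs, 11.2% of all genes were called (3.88% higher, 7.34% lower). There 7 members were lower (Tnfrsf8, Tnfrsf9, Tnfrsf4, Tnfrsf1b, Tnfrsf18, Fas and Tnfrsf13b, log2 -4.46 to -1.02), and Tnfrsf1a was higher (log2 0.80 ± 0.13, FDR 0.00263). Tnfrsf25 (-0.17 ± 0.18, FDR 0.629) and Cd27 (-0.15 ± 0.10, FDR 0.449) did not pass. All 8 calls held without WT mouse 1.

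Against KO FoxP3-CD25- cells of the same replicate numbers edgeR called 0 members, with 1.67% of all genes called (0.319% higher, 1.35% lower, 1381 genes at an unadjusted p under 0.05). At an unadjusted p under 0.05 there were 8 members, and DESeq2 called 0. With the mouse as a replicate block 3 members were called, where 787 of 13796 genes were called. Tnfrsf13b fell by 0.63 on the log2 scale (FDR 0.0164), Tnfrsf1b fell by 0.51 (FDR 0.0159) and Tnfrsf1a rose by 0.48 (FDR 0.0217). Tnfrsf4 (-0.69 ± 0.19, FDR 0.121) and Tnfrsf8 (-1.72 ± 0.51, FDR 0.159) lay lower in both libraries without passing. Cd27 (0.25 ± 0.10, FDR 0.42), Tnfrsf18 (0.38 ± 0.17, FDR 0.49) and Tnfrsf9 (0.41 ± 0.18, FDR 0.491) lay higher in both libraries without passing, and were the rest of the 8. Tnfrsf25 (0.11 ± 0.18) and Fas (-0.26 ± 0.15) had an unadjusted p above 0.05. Against WT FoxP3-CD25- cells edgeR called 0 members (2 at an unadjusted p under 0.05, 0 by DESeq2), with 0.768% of all genes called, 0.355% higher and 0.413% lower (1214 at an unadjusted p under 0.05). The 2 were Tnfrsf18 (0.59 ± 0.17, FDR 0.214), which was called in a fit of these 4 libraries alone (FDR 0.0419), and Cd27 (0.25 ± 0.10, FDR 0.494). The other 8 members had log2 differences from -0.20 (Tnfrsf13b) to 0.36 (Tnfrsf9), and the interval of Tnfrsf8 was the widest at -1.39 to 1.24.

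With replicate numbers read as mice, each KO mouse gave all 3 populations. The place of FoxP3+CD25- cells was then read on a log2 scale per mouse, with KO non-Tregs at 0 and KO Tregs at 1. Foxp3 itself lay at 0.76 and 0.80, and Il2ra at 0.095 and 0.23. Of the 7 members called between KO Tregs and non-Tregs, Cd27 lay at 0.51 and 0.69, Tnfrsf18 at 0.24 and 0.18, and Tnfrsf9 at 0.15 and 0.056. Tnfrsf4 (-0.12 and -0.40), Fas (-0.17 and -0.41), Tnfrsf1b (-0.26 and -0.44) and Tnfrsf8 (-0.42 and -0.69) lay beyond the non-Treg end in both mice. None of the 7 receptors reached the place of Foxp3 in the same mouse. Foxp3 and CD25 were the sorted features, so the places of Foxp3 and Il2ra follow from the sort. For Cd27 the gap between KO Tregs and non-Tregs was only 0.489 and 0.36 on the log2 scale, so its places are loosely set.

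**Figure D4:**
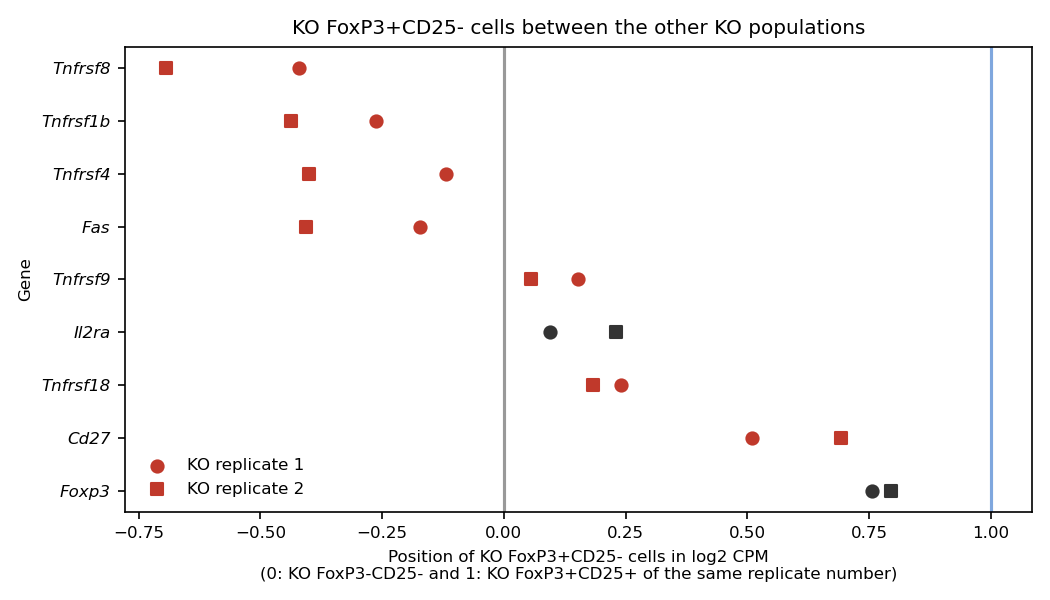
Position of KO FoxP3+CD25- cells (x axis, no unit) between KO FoxP3-CD25- cells (0) and KO FoxP3+CD25+ cells (1) in log2 CPM, for 7 receptor genes (red) and for Foxp3 and Il2ra (black), with 1 symbol per KO replicate. Cd27 lay at 0.51 and 0.69, whereas Tnfrsf8 lay at -0.42 and -0.69. The cells were sorted on Foxp3 and CD25.

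Of 6 genes of the naive and activated state, 2 were lower in this population than in KO non-Tregs and none was higher. Of all genes 1.35% were lower and 0.319% higher. Cd44, an adhesion receptor raised on activated T cells, stood at 17.9 and 16.1 CPM in KO FoxP3+CD25- cells and at 80.1 to 212 CPM in the other 8 libraries (log2 -3.17 ± 0.22 against KO non-Tregs, FDR 0.000158). Icos, a co-stimulatory receptor outside this family, stood at 72.1 and 57.3 CPM against 141 and 162 CPM in KO non-Tregs (log2 -1.23 ± 0.23, FDR 0.0274). Mki67 (-2.60 ± 0.67, FDR 0.0977), Klrg1 (-1.12 ± 1.24, FDR 0.908) and Ccr7 (0.08 ± 0.12, FDR 0.937) did not pass. The B-cell markers summed to 8.08 and 6.02 CPM, against 29.6 and 25.6 CPM in KO non-Tregs, and most of the gap was Cd22, at 1.13 and 1.75 CPM against 20.5 and 17.4 CPM. Their part in the lower receptor levels, Tnfrsf13b included, was not tested.

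Beyond the 10 members, 18 other receptors of the superfamily were looked up, and 8 were abundant enough to test. The list's median log2 fold change was -0.23 in WT Tregs against non-Tregs. Only Tnfrsf26 was called, beside 10.9% of all genes in WT and 6.34% in KO Tregs against non-Tregs. It stood at 49.3 and 50.7 CPM in WT Tregs and 71.0 and 63.8 CPM in WT non-Tregs (log2 -0.43 ± 0.11, FDR 0.0238). It was lower in KO Tregs as well (log2 -0.57 ± 0.11, FDR 0.0106), and higher in KO FoxP3+CD25- cells than in KO Tregs (log2 0.52 ± 0.11, FDR 0.0148). Without WT mouse 1 the WT call was lost. With the mouse as a replicate block, 3 of the 8 were higher in KO FoxP3+CD25- cells than in KO Tregs. In that fit 2090 of 13796 genes were called. Tnfrsf14 (HVEM), the receptor for LIGHT, stood at 31.7 to 49.9 CPM, and Relt at 38.9 to 66.1 CPM over the 10 libraries. Cd40, Ltbr and Tnfrsf17, receptors of other cell types, reached at most 4 counts in a library.

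Of 18 ligands of the superfamily, 12 could be tested. In WT Tregs against WT non-Tregs 3 were higher and 2 were lower, where 7.15% of all genes were higher and 3.75% lower. The median log2 fold change of the ligands was 0.45. Tnfsf10, the death ligand TRAIL, stood at 94.8 and 88.8 CPM against 44.3 and 39.7 CPM (log2 1.13 ± 0.13, FDR 0.000234). Lta, lymphotoxin alpha, stood at 31.5 and 50.1 CPM against 19.1 and 18.7 CPM (log2 1.11 ± 0.21, FDR 0.0064). Tnfsf11, the RANK ligand, stood at 56.4 and 43.5 CPM against 23.4 and 17.8 CPM (log2 1.27 ± 0.26, FDR 0.00787). Cd40lg, the helper ligand of CD40, stood at 41.3 and 27.3 CPM against 173 and 120 CPM (log2 -2.10 ± 0.30, FDR 0.00107), and Fasl at 4.99 and 5.91 CPM against 14.7 and 11.9 CPM (log2 -1.29 ± 0.26, FDR 0.00742). Fas and Fasl thus went opposite ways in WT cells. Without WT mouse 1 fewer ligands were called, as were fewer of all genes.

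In KO Tregs against KO non-Tregs 2 ligands were higher and 3 lower, where 3.52% of all genes were higher and 2.81% lower. Tnfsf10 (log2 1.72 ± 0.13, FDR 3.99e-05) and Lta (1.80 ± 0.22, FDR 0.00087) were higher, and Cd40lg (-1.57 ± 0.30, FDR 0.00968) and Fasl (-1.48 ± 0.28, FDR 0.00973) were lower, as in WT. Tnfsf14, the ligand LIGHT, was lower as well (-1.35 ± 0.27, FDR 0.0121). It stood at 39.4 and 31.6 CPM in KO non-Tregs and at 9.92 to 18.9 CPM in the other 8 libraries. Tnfsf11 stood at 53.9 and 41.2 CPM in KO non-Tregs. In KO against WT non-Tregs neither Tnfsf14 (log2 1.52 ± 0.26, FDR 0.069) nor Tnfsf11 (1.20 ± 0.26, FDR 0.145) passed, and edgeR called no ligand between the genotypes. In non-Tregs 2 of the 12 had an unadjusted p under 0.05 and DESeq2 called 2, and in Tregs these counts were 3 and 0. Of all genes edgeR called 0.145% in non-Tregs and 0.00725% in Tregs. An unadjusted p under 0.05 was reached by 1106 genes in non-Tregs and 593 in Tregs, and DESeq2 called 103 and 5. For the difference of the Treg contrast edgeR called 0 ligands (5 at an unadjusted p under 0.05, 0 by DESeq2). Over all genes 685 had such a p and DESeq2 called 23. With the mouse as a replicate block edgeR called 3 ligands, where 149 of 13796 genes were called.

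KO FoxP3+CD25- cells differed in some ligands from each of the other KO populations, and only Tnfsf11 was called against both. Against KO Tregs Tnfsf10 (log2 -1.59 ± 0.13, FDR 7.1e-05), Tnfsf11 (-2.37 ± 0.29, FDR 0.000728), Lta (-1.57 ± 0.22, FDR 0.00149) and Tnf (-1.39 ± 0.24, FDR 0.00508) were lower. Fasl (1.61 ± 0.28, FDR 0.0049) and Cd40lg (1.38 ± 0.30, FDR 0.0165) were higher. Of all genes 4.76% were lower and 2.25% higher in that comparison. Against KO non-Tregs 3 ligands were lower and none was higher: Tnfsf11 (-2.48 ± 0.29, FDR 0.00245), Tnfsf14 (-1.60 ± 0.27, FDR 0.015) and Tnfsf8, the CD30 ligand (-1.34 ± 0.28, FDR 0.0414). Of all genes 1.35% were lower and 0.319% higher there. With the mouse as a replicate block 5 ligands were lower, where 787 of 13796 genes were called. Tnfsf11 stood at 12.0 and 5.69 CPM, the lowest of all groups in both libraries, and Tnf at 9.05 and 10.8 CPM, below the other 8 libraries (13.0 to 30.0 CPM). Against WT Tregs 5 ligands were lower and 2 higher, where 7.34% of all genes were lower and 3.88% higher. Among the 6 of lowest p, Tnfsf11 (-2.55 ± 0.29, FDR 0.000281), Tnfsf10 (-1.01 ± 0.13, FDR 0.000479), Tnf (-1.40 ± 0.24, FDR 0.00306) and Tnfsf8 (FDR 0.00623) were lower, and Cd40lg (1.99 ± 0.30, FDR 0.00164) and Fasl (1.41 ± 0.26, FDR 0.00532) were higher. Against WT non-Tregs edgeR called 0 (3 at an unadjusted p under 0.05, 2 by DESeq2), with 0.768% of all genes called. Over all genes 1214 had such a p and DESeq2 called 204.

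**Figure D5:**
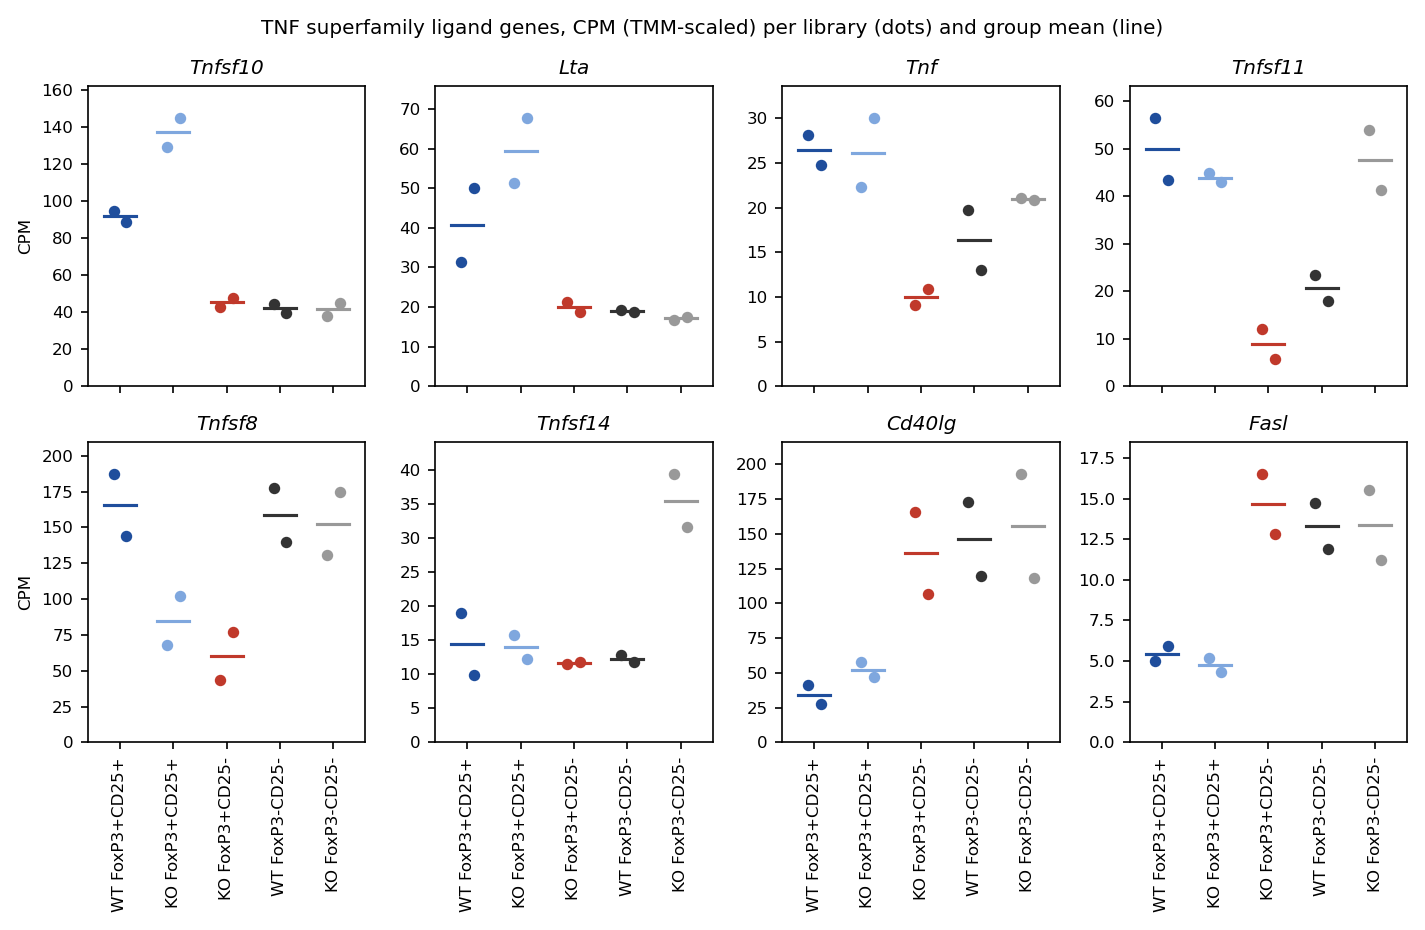
CPM scaled by TMM factors (y axes, linear, from 0) of 8 ligand genes of the TNF superfamily in the 5 groups (x axes), with 1 dot per library and a line at the mean of 2 libraries. Cd40lg and Fasl were low in the 4 FoxP3+CD25+ libraries, and Tnfsf14 was highest in both KO FoxP3-CD25- libraries.

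All 14 genes of the adaptors and proximal signalling could be tested. In WT 1 was called and in KO 2, beside 10.9% and 6.34% of all genes. Birc3, the ubiquitin ligase cIAP2, was higher in Tregs of WT (log2 0.50 ± 0.10, FDR 0.00712) and KO mice (0.63 ± 0.10, FDR 0.00356). Casp8, the caspase of the death domain branch, was higher in KO Tregs (0.49 ± 0.11, FDR 0.0278), and Traf5 was lower in KO FoxP3+CD25- cells than in WT Tregs (-0.54 ± 0.14, FDR 0.032). With the mouse as a replicate block, 5 of the 14 were higher in WT Tregs and 4 in KO Tregs. Without WT mouse 1 the call of Birc3 in WT was lost, and fewer of all genes were called. The fit with the mouse as a block called 2634 of 13796 genes in WT and 1650 in KO. All 11 genes of the NF-kappaB pathway were tested. In WT Tregs 6 were higher and 1 lower, and in KO Tregs 5 were higher, with medians of 0.58 and 0.55. Of all genes 7.15% were higher and 3.75% lower in WT Tregs, and 3.52% were higher in KO Tregs. The inhibitor Nfkbia (0.92 ± 0.15, FDR 0.00274), the subunits Rel (0.87 ± 0.14, FDR 0.00172), Nfkb2 (0.74 ± 0.15, FDR 0.00982) and Nfkb1 (0.59 ± 0.17, FDR 0.0426), and the regulators Tnip1 (0.67 ± 0.12, FDR 0.00506) and Nfkbie (0.54 ± 0.13, FDR 0.0196) were higher in WT Tregs. Map3k14, the kinase NIK of the alternative pathway, was lower (-0.46 ± 0.09, FDR 0.00779). In KO Tregs Nfkbia (0.96 ± 0.16, FDR 0.00403), Rel (0.93 ± 0.14, FDR 0.00231), Nfkb2 (0.83 ± 0.16, FDR 0.00973), Tnip1 (0.77 ± 0.12, FDR 0.0038) and Relb (0.76 ± 0.18, FDR 0.0312) were higher. Without WT mouse 1 fewer of the 11 were called in WT, as were fewer of all genes.

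Rel, in KO FoxP3+CD25- cells, stood at 104 and 93.7 CPM, against 93.7 to 111 CPM in the 4 non-Treg libraries, and was below KO Tregs (log2 -0.94 ± 0.14, FDR 0.002). Tnip1 (-0.62 ± 0.12, FDR 0.012) and Nfkbia (-0.61 ± 0.15, FDR 0.0377) were also lower than in KO Tregs, where 7.02% of all genes were called. With the mouse as a replicate block 5 of the 11 were lower and 1 was higher, where 2090 of 13796 genes were called. Against WT Tregs Rel (-0.99 ± 0.14, FDR 0.000809), Tnip1 (-0.62 ± 0.12, FDR 0.00829) and Nfkbia (-0.76 ± 0.15, FDR 0.00888) were lower and Map3k14 (0.49 ± 0.09, FDR 0.00591) was higher. Of all genes 7.34% were lower and 3.88% higher in that comparison. Against KO non-Tregs edgeR called 0 of the 11 (4 at an unadjusted p under 0.05, 0 by DESeq2), with 1.67% of all genes called. Over all genes 1381 had such a p. With the mouse as a replicate block 4 were higher, where 787 of 13796 genes were called. Nfkb2 stood at 133 and 127 CPM in these cells, between KO non-Tregs (91.3 and 86.0 CPM) and KO Tregs (162 and 152 CPM).

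Across the 10 libraries, log2 CPM of Tnfrsf4 followed that of Cd83 most closely (Pearson r = 0.995), a marker of activated lymphocytes. Tnfrsf1b followed Nt5e, the ecto-enzyme CD73 (0.99), and Tnfrsf8 followed Gm8281 (0.991), with Il2rb and Ikzf2 next (0.989 each). For Cd27 the nearest genes were Bcl3 (0.975) and Birc3 (0.973), which belong to the NF-kappaB pathway, and then Gbp6 (0.971). For Fas the nearest was 4930528J11Rik (0.988), followed by Tnfrsf4 (0.987). For Tnfrsf18 E130208F15Rik and Rhoh came first (0.992 each), and the third was Gm16008 (0.986), the antisense gene that shares its exonic bases. The nearest gene was Gm37881 for Tnfrsf9 (0.991), Il12rb1 for Tnfrsf13b (0.981), Rell1 for Tnfrsf1a (0.979) and Sema3d for Tnfrsf25 (0.954). Among the members, r was 0.984 between Tnfrsf4 and Tnfrsf8 and 0.971 between Tnfrsf1b and Tnfrsf4, while Tnfrsf1a was opposed to all others (-0.902 to -0.363). The 10 points are 5 groups of 2 libraries that share mice and depth, so r describes the split between the sorted populations.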

How the data were processed

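RNA of 10 sorted CD4+ T-cell libraries, 2 in each of 5 groups, had been sequenced in 50 base reads. As deposited, the values were raw read counts per gene: per the submitters' processing notes, HISAT2 2.1.0 aligned the reads to mm10 and HTSeq 0.11.1 counted them. The annotation and strand setting are not given in the sources used here. The 5 tallies of unassigned reads in each file were kept apart, and reads on genes were 26.0% to 28.5% of all reads.

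Counts of the 10 libraries were fitted together in edgeR 4.0.16 (R 4.3.3, limma 3.58.1) with group means, TMM scaling and filterByExpr at a minimum count of 10, which left 13796 genes. Contrasts were tested with the quasi-likelihood F-test, SE was the log2 fold change over the root of F, and Benjamini-Hochberg FDR under 0.05 was the threshold. Log2 CPM for likeness and position used a prior count of 2. Alternatives were no filter, RLE factors, library size alone, DESeq2 1.42.0, the older quasi-likelihood method, the compared libraries alone, replicate blocks, each library left out, and WT mouse 1 left out.

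The rule took all 10 members in every comparison, given singly or by their range. Of the other lists it took called genes, up to 6 a list and comparison by lowest p, and genes named beyond this rule were chosen after their values were seen. The members and lists were chosen with earlier results of these data known. Within a genotype, deviations of same-numbered libraries from their group means correlated at 0.303 in WT and 0.421 to 0.445 in KO. Between genotypes the values were -0.0114 to 0.114, so numbers were read as mice within a genotype. P-values measure the spread between these libraries. No sample was left out of the main fit. The values of 1 B-cell marker and of 1 gene of the naive and activated state are not reported here.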

Additional observations from a re-analysis of the deposited data

How the results depend on the processing

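For the 10 receptors, 32 results were called, and none of them changed sign under any alternative. Over alternatives other than leaving out 1 library they gave 265 values, of which 259 kept the call and 6 lost it; leaving out 1 library at a time gave 128 values, of which 16 lost it. The number of members called in KO FoxP3+CD25- against KO FoxP3-CD25- cells rose from 0 to 2 with the replicate number as a block and to 3 with the mouse as a replicate block, and against WT FoxP3-CD25- cells it rose from 0 to 1 in the compared libraries alone. The paired fits lost no call of a member. Signs turned only among results that were not called. Cd27 in KO against WT non-Tregs was -0.01225 with no filter, -0.0004028 with the replicate block by number and -0.03004 without WT mouse 1. Without WT mouse 1, Tnfrsf9 in the same comparison was 0.01084. In KO FoxP3+CD25- against WT FoxP3-CD25- cells Tnfrsf1b was 0.0111, Tnfrsf4 0.01208 and Tnfrsf8 0.3324 without that mouse. Between KO and WT Tregs Tnfrsf1b was 0.1003, Tnfrsf4 -0.03471, Tnfrsf8 0.06726, Tnfrsf18 -0.1118 and Cd27 -0.01382. With each library left out, log2 values in KO against WT Tregs ran from -0.5602 to 0.1003 (Tnfrsf1b), -0.03475 to 0.2778 (Tnfrsf4), -0.2602 to 0.06733 (Tnfrsf8), -0.1118 to 0.4658 (Tnfrsf18), -0.01384 to 0.0591 (Cd27) and -0.151 to 0.06983 (Fas). For the difference of the contrasts they ran from -0.3316 to 0.2467 (Tnfrsf18) and -0.05044 to 0.1072 (Cd27). In KO FoxP3+CD25- against WT FoxP3-CD25- cells they ran from -0.2906 to 0.009926 (Tnfrsf1b), -0.3349 to 0.0891 (Tnfrsf4), -0.3244 to 0.3319 (Tnfrsf8) and -0.2223 to 0.01711 (Fas). Between KO and WT non-Tregs they ran from -0.09845 to 0.02779 (Tnfrsf9), -0.2593 to 0.272 (Tnfrsf25) and -0.08233 to 0.08634 (Cd27), and for Tnfrsf25 in KO FoxP3+CD25- against KO FoxP3-CD25- cells from -0.1224 to 0.4027. The cause of these changes was not tested. Counts over all genes moved more. With the mouse as a replicate block they rose from 1504 to 2634 (WT Tregs against non-Tregs), from 874 to 1650 (KO), from 230 to 787 and from 968 to 2090 (KO FoxP3+CD25- against KO non-Tregs and Tregs), and from 0 to 149 (difference). Without WT mouse 1 the first fell to 715, that of KO FoxP3+CD25- against WT Tregs from 1548 to 975 and against WT non-Tregs from 106 to 42. Between KO and WT non-Tregs the count of 20 became 91 with no filter, 31 by library size, 103 in DESeq2, 67 in the compared libraries, 108 with the block by number, and 0 to 4 with 1 library left out. For KO FoxP3+CD25- against KO non-Tregs the count of 230 became 411 with no filter, 353 in DESeq2 and 403 with the block by number, and against WT non-Tregs 106 became 238, 204 and 217. The difference gave 7, 23 and 10 in the same settings. Against WT Tregs 1548 became 926 in the compared libraries. With 1 library left out, counts ran from 828 to 2182 (WT), 396 to 441 (KO), 30 to 172, 410 to 562, 25 to 57 and 790 to 1981 (KO FoxP3+CD25- against KO non-Tregs, KO Tregs, WT non-Tregs and WT Tregs) and 0 to 121 (difference). Between KO and WT Tregs the single gene became 0 to 7 over all alternatives. With 2 libraries a group and 5 residual degrees of freedom, small differences were not detectable at this depth of replication, and Tnfrsf8 in FoxP3- and FoxP3+CD25- cells rested on 5 to 18 counts.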
